A study of Mus musculus with 6 samples.

Results

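miR-204 and miR-211 are related mouse microRNAs (miRNAs), short RNAs that repress messenger RNAs carrying a match to their seed. They were read here across small RNA libraries from ulcerated skin. The members were chosen by name, as the rows of the deposited count table that hold mmu-miR-204-5p, mmu-miR-204-3p or mmu-miR-211-5p (mmu for mouse), and all 3 were found among 649 entries. The samples were skin tissue of C57 mice labelled day 14, with 3 from a normal ulcer and 3 from a diabetic ulcer. How diabetes was induced, the age and sex of the mice, and whether each sample was a separate animal are not stated in the sources used here, so p-values measure no more than the spread among these samples, which may be technical. The groups follow the sample titles. The header of the authors' deposited table instead names the columns titled diabetic ulcer as control and those titled normal ulcer as case, so every direction below holds only as far as the titles do.

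The values come from 4 libraries, normal ulcer 1 and normal ulcer 2 (the normal libraries) with diabetic ulcer 1 and diabetic ulcer 2 (the diabetic libraries), because the columns numbered 3 are not independent. Adding 0.5 times the count of normal ulcer 1 to 0.506 times that of normal ulcer 2 gave the count of normal ulcer 3 to within 1 read for 621 of 638 entries (97.3%). In diabetic ulcer 3 the TPM (transcripts-per-million value by the authors) divided by the count lay within 1% of its median for 7 of 607 entries, against at least 99.5% of entries in each of the 4 libraries. For miR-211-5p its count, 223, equals that of diabetic ulcer 1, but its TPM was 1.19 against 10.6 there, and miR-204-3p was listed at a count of 0 with a TPM of 0.674. Total miRNA counts in the 4 libraries ran from 8949104 to 13421603. miR-1a-3p, a muscle miRNA, took 16.4% and 65.0% of them in normal ulcer 1 and 2 and 34.4% and 44.4% in diabetic ulcer 1 and 2. Levels are therefore given as CPM (counts-per-million values) scaled by TMM, a method that sets libraries level over the bulk of miRNAs, and beside it as CPM of the library total, without TMM, where they differ.

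miR-204 is known for its abundance in the retinal pigment epithelium, the lens and the choroid plexus. miR-211 is known from melanocytes and melanoma, where in human cells its host gene is switched on by MITF, the master transcription factor of the melanocyte lineage. In furred mouse skin the melanocytes sit mainly in the hair follicles. The sequences below show why the members belong together, with the seed (bases 2 to 8) in capitals, written 5′ to 3′ from RefSeq on GRCm38.p6, and all 3 members matched the deposited sequence.
miR-204-5p: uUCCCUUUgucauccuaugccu
miR-211-5p: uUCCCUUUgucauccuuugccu
miR-204-3p: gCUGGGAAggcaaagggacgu
The seed of miR-204-5p and miR-211-5p is the same, and 21 of their 22 bases are identical. The difference is A17U, with miR-204-5p first and positions counted from 1 at the 5′ end. Reads are therefore told apart by 1 base, and how many mismatches the authors' counting allowed is not stated in those sources. miR-204-3p, the opposite arm of the miR-204 hairpin, has another seed. The table held 1 other entry with the seed of the pair, miR-7670-3p, at counts of 0 and 0 in normal libraries 1 and 2, against 2 and 4 in diabetic libraries 1 and 2. It adds almost nothing to the pair's reads.

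Each miRNA comes from a single hairpin, shown here with both annotated arms in capitals to place the 3 members in their precursors.
Mir204: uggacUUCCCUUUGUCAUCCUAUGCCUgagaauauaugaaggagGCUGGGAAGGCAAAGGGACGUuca
Mir211: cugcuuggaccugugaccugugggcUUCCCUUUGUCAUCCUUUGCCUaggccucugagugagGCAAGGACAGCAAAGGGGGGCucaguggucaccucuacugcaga
Mir204 lies on the plus strand of chromosome 19 from 22750605 to 22750672, in an intron of Trpm3. Mir211 lies on the plus strand of chromosome 7 from 64205806 to 64205911, in an intron of Trpm1. Both hosts encode cation channels of the melastatin family, run in the same direction as the miRNA, and have no annotated exon (GENCODE M21) over the hairpin. In GRCm38 miR-204-5p spans 22750610 to 22750631, miR-204-3p 22750649 to 22750669 and miR-211-5p 64205831 to 64205852. The 3′ arms have diverged more than the 5′ arms, with 14 of 21 bases identical between miR-204-3p and miR-211-3p. miR-211-3p is no entry of the count table and is not analysed here.

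miR-204-5p was the most abundant of the members and varied little after TMM scaling. Its counts were 278 and 182 in normal libraries 1 and 2, against 224 and 172 in diabetic libraries 1 and 2. Scaled by TMM these were 23.3 and 21.7 CPM in the normal libraries, against 20.2 and 15.8 CPM in the diabetic libraries. Both diabetic libraries lay below both normal ones, and the highest library was 1.48 times the lowest. Of 443 tested miRNAs, 12% had this order and 9.03% the opposite one, so it sets miR-204-5p apart little. As CPM of the library total the values were 31.1 and 13.6 in the normal libraries, against 24.1 and 16.0 in the diabetic libraries, and there the groups overlapped. By mean level, 67.5% of the 649 entries lay below it. Its neighbours in that order, miR-329-3p above it at a mean of 22.4 CPM and miR-195a-3p below it at 19.6 CPM, had ranges over the 4 libraries that overlapped its own. In bulk tissue, fewer cells of a type and less RNA per cell cannot be told apart.

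miR-211-5p, at the same mature length of 22 bases, was rarer on average and far more uneven. Its counts were 190 and 29 in normal libraries 1 and 2, against 223 and 60 in diabetic libraries 1 and 2. These correspond to 16.0 CPM (95% exact Poisson interval 13.8 to 18.4) and 3.46 CPM (2.32 to 4.97) in normal ulcer. In diabetic ulcer they correspond to 20.1 CPM (17.6 to 23.0) and 5.51 CPM (4.20 to 7.09). In each group the library numbered 1 was high and the library numbered 2 low, the groups overlapped, and the highest library was 5.82 times the lowest. As CPM of the library total the values were 21.2 and 2.16 in the normal libraries, against 23.96 and 5.57 in the diabetic libraries, where the highest was 11.1 times the lowest and the order of the libraries was the same. The intervals of the high and the low libraries did not meet, though such intervals leave out variation between samples. Reads copied by PCR are not separate molecules, so the intervals may be too narrow even for the error of counting. By mean level, 59.3% of the entries lay below it. Its neighbours miR-19a-3p and miR-125a-3p averaged 11.4 and 10.9 CPM, with ranges inside that of miR-211-5p.

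miR-204-3p was near the limit of detection. It had 1 and 2 counts in normal libraries 1 and 2, against 0 and 6 in diabetic libraries 1 and 2. Summed, 3 of 22370707 counts in normal ulcer stood against 6 of 20071816 in diabetic ulcer, a ratio of 2.23 with a 95% interval of 0.476 to 13.8 from counting error. The 0 in diabetic ulcer 1 allows up to 0.396 CPM of the library total by the 95% exact Poisson interval. As a share of the reads of both miR-204 arms, the 3′ arm made up 0.358% (95% Wilson interval 0.0633 to 2.0) in normal ulcer 1 and 1.09% (0.299 to 3.88) in normal ulcer 2. In diabetic ulcer 2 it made up 3.37% (1.55 to 7.16), while 0 of 224 reads in diabetic ulcer 1 allow up to 1.69% by the same interval. The 5′ arm was thus the dominant product of the hairpin in all 4 libraries. The log2 ratio of the 5′ to the 3′ arm, with 0.5 added to each count, was 7.54, 6.19, 8.81 and 4.73 in normal libraries 1 and 2, then diabetic libraries 1 and 2. Its group means were 6.86 ± 0.95 and 6.77 ± 2.89 (SD, n = 2), and an exact two-sided permutation test gave p = 1, where the smallest p this design allows is 0.333.

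**Figure D1:**
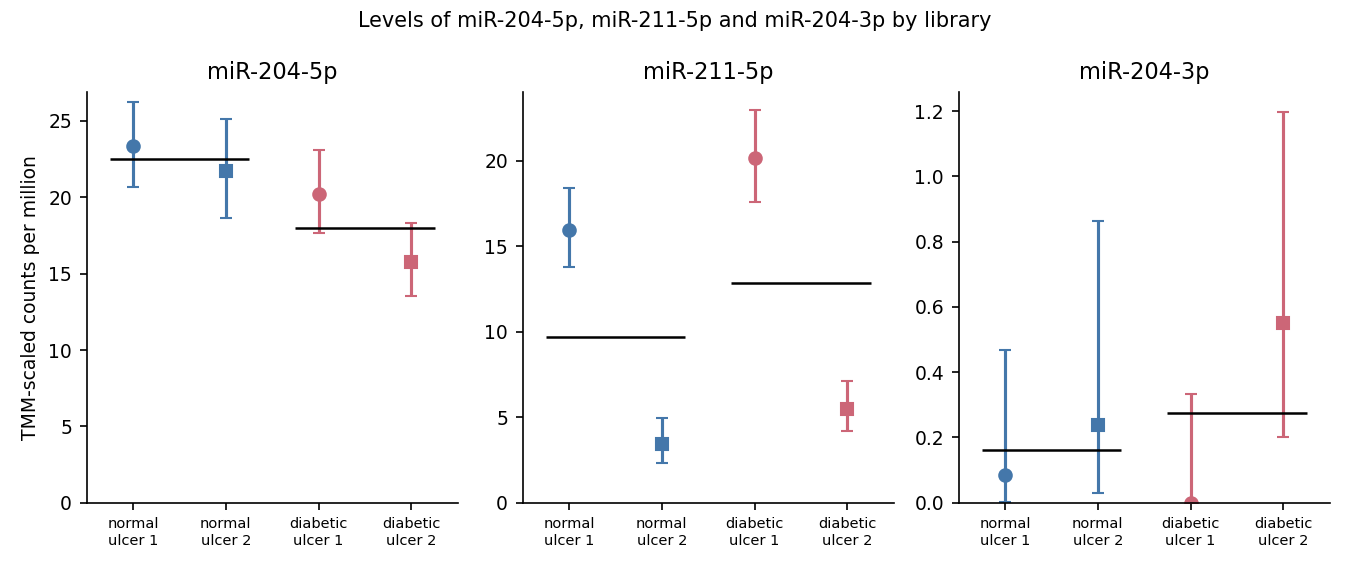
TMM-scaled CPM (vertical axis, from 0, a separate scale for each miRNA) of miR-204-5p, miR-211-5p and miR-204-3p in the 4 libraries. Points are libraries with 95% Poisson intervals of the count, and black lines are group means of 2 libraries. miR-204-5p lies between 15.8 and 23.3, while miR-211-5p is at 16.0 and 20.1 in the libraries numbered 1 and at 3.46 and 5.51 in those numbered 2.

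Within a library, the share of the pair's reads that came from miR-211-5p does not depend on how libraries are scaled. It was 40.6% (190 of 468 reads, 95% Wilson interval 36.2 to 45.1) in normal ulcer 1 and 13.7% (29 reads beside 182 of miR-204-5p, 9.74 to 19.0) in normal ulcer 2. In diabetic ulcer it was 49.9% (223 of 447, 45.3 to 54.5) in library 1 and 25.9% (60 of 232, 20.7 to 31.9) in library 2. So the pair was nearly even in diabetic ulcer 1 and mostly miR-204-5p in the libraries numbered 2. The log2 ratio of miR-211-5p to miR-204-5p was -0.55 and -2.65 in normal libraries 1 and 2, against -0.01 and -1.52 in diabetic libraries 1 and 2. The group means were -1.60 ± 1.49 and -0.76 ± 1.07 (SD, n = 2), a difference of 0.84, diabetic minus normal, that is smaller than the spread within each group (exact two-sided permutation test, p = 0.667, smallest possible 0.333). Without normal ulcer 2 the difference was -0.21. Summed over the pair, the reads with this seed amounted to 39.3 and 25.2 CPM in normal libraries 1 and 2, against 40.4 and 21.3 CPM in diabetic libraries 1 and 2, again with library 1 the higher in each group. As CPM of the library total the sum was 52.3 and 15.7 in the normal libraries, against 48.0 and 21.6 in the diabetic libraries, so on that scale normal ulcer 2 was the lowest library rather than diabetic ulcer 2.

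**Figure D2:**
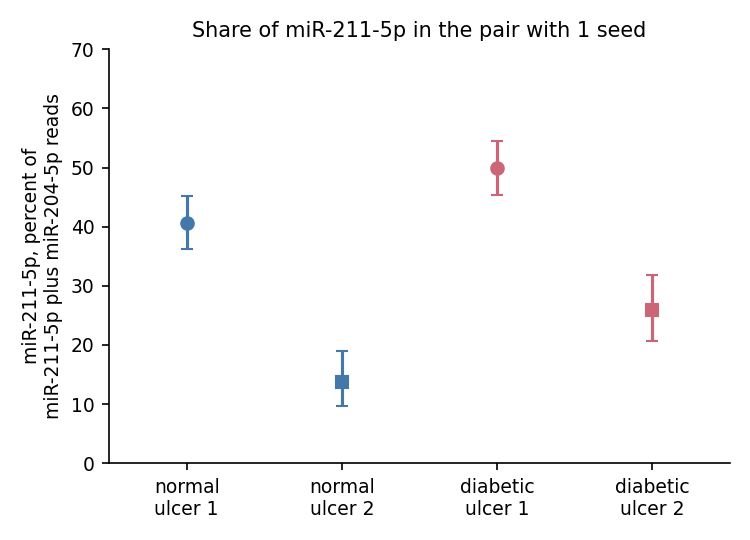
Reads of miR-211-5p as a percentage of the reads of miR-211-5p and miR-204-5p together (vertical axis) in each of the 4 libraries, with 95% Wilson intervals. The share was 40.6% and 49.9% in the libraries numbered 1 and 13.7% and 25.9% in those numbered 2, and the groups overlap.

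The contrast between library 1 and library 2 was shared by miR-211-5p, the keratinocyte and hair follicle miRNAs and some miRNAs of other lists below. It was hardly shared by miR-204-5p after TMM scaling. miR-211-5p was 4.61 times higher in normal ulcer 1 than in normal ulcer 2 and 3.66 times higher in diabetic ulcer 1 than in diabetic ulcer 2 on TMM-scaled CPM. For miR-204-5p these ratios were 1.08 and 1.28. As CPM of the library total they were 9.83 and 4.30 for miR-211-5p and 2.29 and 1.51 for miR-204-5p, so the contrast of miR-204-5p in normal ulcer depends on the scaling. On TMM-scaled CPM, library 1 lay at least 2-fold above library 2 in both groups for 19 of 443 tested miRNAs (4.29%). On that scale miR-211-5p took place 3 of 443 by the smaller of its ratios. Neither the count nor the place was taken on library totals. Ahead of it stood miR-378c and miR-26a-1-3p, and the latter rests on 10 and 1 reads in normal libraries 1 and 2 with 17 and 3 in diabetic libraries 1 and 2, too few to fix an order. The number is only a library's label, and no test of it was made.

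A keratinocyte and hair follicle list was chosen with earlier results of these data known. All 10 of its miRNAs were higher in library 1 than in library 2 in both groups. They include members of the miR-200 family and the miR-183 cluster, so they are not 10 independent observations. After TMM scaling 33.4% of tested miRNAs showed this order. On library totals it was also 10 of 10, against 58.7% of tested miRNAs. Outside the list, miR-184-3p and miR-203b-3p did not follow this order after TMM scaling. miR-184-3p stood at 1.10 and 0.80 times in library 1 in normal and diabetic ulcer. miR-203b-3p had 11.8 and 18.0 CPM in normal libraries 1 and 2, against 9.22 and 38.3 CPM in diabetic libraries 1 and 2. Summed, the list stood at 59659 and 25910 TMM-scaled CPM in normal libraries 1 and 2, against 48481 and 22412 in diabetic libraries 1 and 2. Its share of all counts was 7.94% and 1.62% in the normal libraries, against 5.76% and 2.27% in the diabetic libraries. None of its markers was at 0 in any library. miR-203-3p, which promotes keratinocyte differentiation, was 2.24 and 2.25 times higher in library 1 in normal and diabetic ulcer. miR-182-5p, a miRNA of hair follicles and sensory organs, was 2.47 and 1.81 times higher. Set against the list's own reads, miR-211-5p had 2.67 and 1.34 reads per 10000 in normal libraries 1 and 2, against 4.16 and 2.46 in diabetic libraries 1 and 2, a narrower range than its CPM. miR-204-5p had 3.91 and 8.38 per 10000 in the normal libraries, against 4.17 and 7.04 in the diabetic libraries, where the libraries numbered 2 are the high ones. The order of library 1 above library 2 was not confined to this list. Both fibroblast miRNAs had it on either scale. After TMM scaling miR-199a-3p stood at 1.49 and 1.47 times and miR-214-3p at 1.19 and 1.46 times. Of 11 tested pigmentation miRNAs, some also on this list, 7 had it after TMM scaling and 8 on library totals. The neural and Schwann list had 0 of 5 and 3 of 5. The muscle, leukocyte and endothelial lists had 0 on either scale. What part the amount of epidermis or follicle in a sample has in the level of miR-211-5p was not tested.

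Skeletal muscle miRNAs differed between libraries too, in a less even way. Of 5 listed, 3 were lower in library 1 than in library 2 in both groups, on either scale. The share of all tested miRNAs with this order was not counted. On TMM-scaled CPM 3 of 4 leukocyte and 2 of 2 endothelial miRNAs had it too, but 0 of either list on library totals. The muscle list took 17.2% and 66.1% of all counts in normal libraries 1 and 2, against 35.7% and 44.9% in diabetic libraries 1 and 2. Most of it was miR-1a-3p. miR-206-3p, a miRNA of skeletal muscle, was 0.354 times as high in library 1 in normal ulcer and 2.85 times as high in diabetic ulcer on TMM-scaled CPM, and 0.755 and 3.35 times on library totals. The part of muscle content in the members' levels was not tested.

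**Figure D3:**
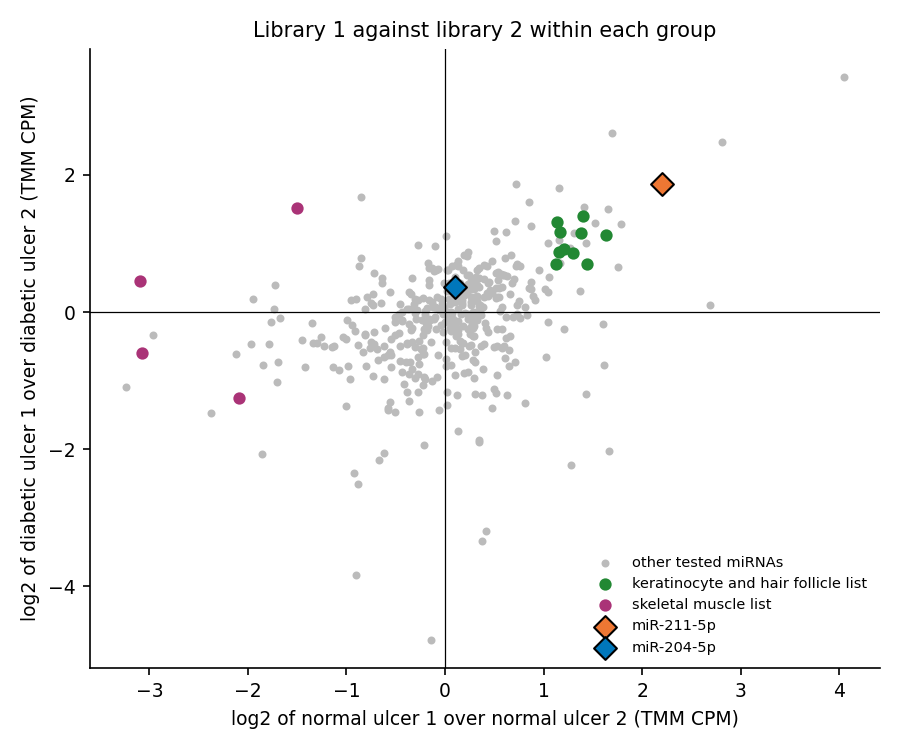
Log2 ratio of library 1 to library 2 (TMM-scaled CPM) in normal ulcer (horizontal axis) and diabetic ulcer (vertical axis). Points are 442 tested miRNAs, and 1 with a count of 0 is not drawn. miR-211-5p lies at ratios of 4.61 and 3.66, beyond the 10 keratinocyte and hair follicle miRNAs (green), while miR-204-5p is near the origin with ratios of 1.08 and 1.28.

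The miRNAs whose course over the 4 libraries came closest to each member were different for the pair. Likeness was the root mean square (RMS) difference of centred log2 CPM over the 4 libraries, among 272 other entries averaging at least 10 CPM. Over so few libraries many entries can come close, so the lists are a description. For miR-211-5p the nearest 5 were miR-205-3p (RMS difference 0.374), miR-429-3p (0.425), miR-96-5p (0.476), miR-205-5p (0.479) and miR-200b-5p (0.484), against a median of 1.04 over all entries. miR-205-5p, an epidermal miRNA needed for skin stem cells in mice, had 3406 and 1294 CPM in normal libraries 1 and 2, against 2871 and 1083 CPM in diabetic libraries 1 and 2. miR-96-5p, of the miR-183 cluster, had 119 and 38.5 CPM in the normal libraries, against 85.4 and 39.0 CPM in the diabetic libraries. miR-429-3p and miR-200b-5p belong to the miR-200 family of epithelial miRNAs.

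For miR-204-5p the nearest were miR-136-3p (RMS difference 0.032), miR-16-5p (0.0389), miR-26a-5p (0.0549), miR-29a-3p (0.0628) and miR-541-5p (0.0812), against a median of 0.318. miR-136-3p and miR-541-5p come from the imprinted Dlk1-Dio3 region. miR-16-5p restrains the cell cycle, and miR-29a-3p represses collagens. miR-136-3p had 13.8 and 12.4 CPM in the normal libraries, against 11.7 and 8.72 CPM in the diabetic libraries, the same gentle course as miR-204-5p. From miR-204-5p, miR-211-5p stood 0.98 away, place 263 of 272, although they share a seed.

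The comparison the labels imply, diabetic against normal ulcer, gave no difference in a member's level that passed the test. edgeR's quasi-likelihood test over the 4 libraries called 0 of 443 tested miRNAs (0%) at an adjusted p under 0.05, with 4 at an unadjusted p under 0.05. DESeq2 and limma-voom each also called 0, with 4 apiece at an unadjusted p under 0.05. For miR-204-5p the group means were 22.5 ± 1.15 CPM in the normal libraries, against 18.0 ± 3.15 CPM in the diabetic libraries (SD, n = 2). Its log2 difference, diabetic minus normal, was -0.32 ± 0.32 (SE), with a 95% interval of -1.13 to 0.49 and an adjusted p of 0.999 in edgeR. miR-211-5p had 9.71 ± 8.84 CPM in the normal libraries, against 12.8 ± 10.4 CPM in the diabetic libraries (SD, n = 2). Its log2 difference was 0.39 ± 0.89 (SE), with an interval of -1.82 to 2.60 and an adjusted p of 0.999 in edgeR. These intervals take in higher and lower levels alike, and that of miR-211-5p is several-fold wide. miR-204-3p did not pass the filter on low counts, so 2 of the 3 members were tested.

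Single libraries decided the sign for miR-211-5p. Its log2 difference was 1.88 without normal ulcer 1 (unadjusted p = 0.0238, adjusted p = 0.991 in edgeR) and 1.13 without diabetic ulcer 2. It was -0.20 without normal ulcer 2 and -0.81 without diabetic ulcer 1. The high or low library left out in each case set the direction. For miR-204-5p the difference stayed negative, from -0.51 without diabetic ulcer 1 to -0.09 without diabetic ulcer 2, and was -0.15 ± 0.87 (SE) on library totals, a scaling that moved the median of all tested miRNAs from -0.02 to 0.17.

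**Figure D4:**
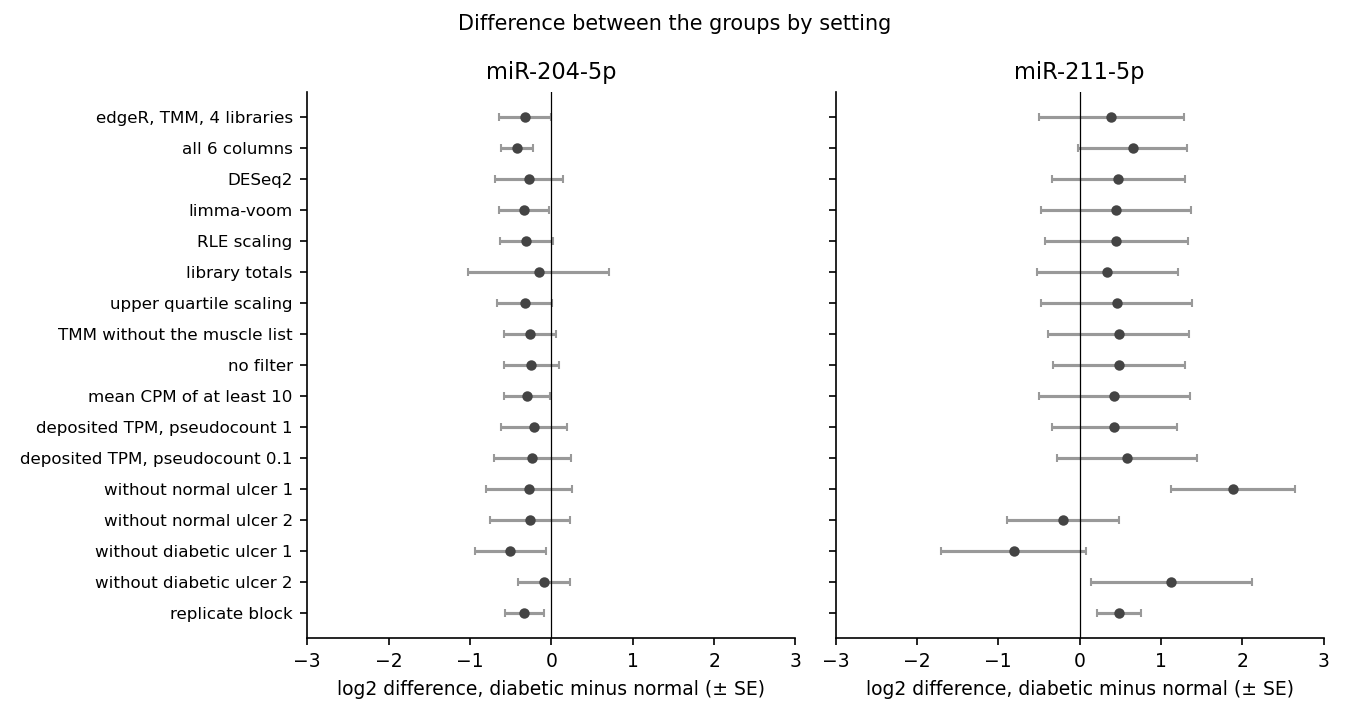
Log2 difference between the groups, diabetic minus normal (horizontal axis, points with SE), of miR-204-5p and miR-211-5p under each setting (vertical axis). miR-204-5p runs from -0.51 to -0.09, and miR-211-5p runs from -0.81 without diabetic ulcer 1 to 1.88 without normal ulcer 1.

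The authors' deposited table gives folds of larger size for the members, as case over control and from a different split of the libraries. In the authors' deposited table the mean headed control equalled 0.931 times the count of diabetic ulcer 2 within 1% for 630 of 647 shared entries. The mean headed case in the authors' deposited table equalled 0.283 times normal ulcer 1 plus 0.412 times normal ulcer 2 plus 0.329 times diabetic ulcer 1 within 1% for 640 of them. The fold in the authors' deposited table thus sets 3 libraries, diabetic ulcer 1 among them, against diabetic ulcer 2. For miR-211-5p the authors' deposited table lists a fold of 2.50 (log2 1.32, p = 0.132, q = 0.991, DESeq2), case over control, on base means of 139 and 55.8. For miR-204-5p the authors' deposited table lists a fold of 1.42 (log2 0.51, p = 0.202, q = 0.991, DESeq2). For miR-204-3p the authors' deposited table lists a fold of 0.190 (p = 0.283, q = 0.991, DESeq2), on counts no higher than 6. By the titles, case over control runs as normal over diabetic, the reverse of the differences above. Read so, miR-211-5p has the opposite direction to its log2 difference of 0.39. miR-204-5p has the same direction as its -0.32, and miR-204-3p the same as its summed reads. Diabetic ulcer 2 enters both comparisons and held all 6 diabetic reads of miR-204-3p, so the shared directions are not independent. Neither q nor p passed for any member.

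Other miRNAs reported to act on MITF, tyrosinase or pigmentation were at levels well above the pair and did not pass the test. Of 12 on the list, 11 were in the table and tested, and edgeR called 0. The log2 differences, diabetic minus normal, were above 0 for 3 and below 0 for 8, with a median of -0.05 against -0.02 over all tested miRNAs. That direction is not stable, since 9 were above 0 without normal ulcer 1, 7 without diabetic ulcer 2 and 7 on library totals. miR-148a-3p, reported to repress MITF in human melanoma cells, had 41353 ± 12086 CPM in the normal libraries, against 48436 ± 15567 CPM in the diabetic libraries (SD, n = 2). miR-203-3p had 30017 ± 16286 and 24753 ± 13448 CPM, and miR-182-5p had 3711 ± 2219 and 3248 ± 1322 CPM (SD, n = 2). Both stand on the keratinocyte and hair follicle list as well. miR-27a-3p had 4742 ± 1181 and 4422 ± 451 CPM (SD, n = 2). Which skin cells made these miRNAs was not measured, so their levels do not measure melanocytes. The list's remaining miRNA, miR-137-3p, is not analysed here.

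Marker lists of other cell types gave no call in edgeR either, and the direction of most turned on single libraries. The keratinocyte and hair follicle list had 1 of 10 above 0 and 9 below (median log2 difference -0.28), but 10 of 10 were above 0 without normal ulcer 1 (0.52) and without diabetic ulcer 2 (0.26). The muscle list had 5 of 5 below (-0.68), and without normal ulcer 2 it had 5 of 5 above (1.67). Of the leukocyte list 4 of 4 were above 0 (0.34), and without diabetic ulcer 2 the count was 1 of 4 (-0.40). Its miR-223-3p, a miRNA of myeloid cells, had 445 and 536 TMM-scaled CPM in normal libraries 1 and 2, against 322 and 720 in diabetic libraries 1 and 2. On that scale the diabetic libraries held both the lowest and the highest value. As CPM of the library total the summed list was 940 and 539 in the normal libraries, against 709 and 1387 in the diabetic libraries, with normal ulcer 2 lowest. Of the endothelial list 2 of 2 were above 0 (0.07), against 0 of 2 without diabetic ulcer 2 (-0.30) and 1 of 2 without normal ulcer 1 (-0.06). Its miR-126a-3p, an endothelial miRNA, had 11531 and 15565 TMM-scaled CPM in the normal libraries, against 9762 and 17949 in the diabetic libraries. On that scale diabetic ulcer 1 was again lowest and diabetic ulcer 2 highest. As CPM of the library total the summed endothelial list was 15672 and 9882 in the normal libraries, against 11863 and 18504 in the diabetic libraries, with normal ulcer 2 lowest. The fibroblast list had 0 of 2 above 0 (-0.10), and 2 of 2 with either normal ulcer 1 (0.12) or diabetic ulcer 2 (0.22) left out.

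The neural and Schwann list, of interest because melanocytes arise from the neural crest, had 2 of 5 tested above 0 (median log2 difference -0.37). Its summed level was 198 and 318 TMM-scaled CPM in normal libraries 1 and 2, against 210 and 258 in diabetic libraries 1 and 2. As CPM of the library total it was 263 and 199 in the normal libraries, against 249 and 261 in the diabetic libraries, so which library of normal ulcer was higher depends on the scaling. The list for eye and choroid plexus epithelium holds both 5′ arms of the pair and is not independent of them, and 1 of its 4 was above 0 (-0.26), and 2 of 4 with either normal ulcer 1 (0.28) or diabetic ulcer 2 (0.05) left out. Its miR-184-3p, a miRNA of lens and cornea, had 10.8 ± 0.702 CPM in the normal libraries, against 9.43 ± 1.46 CPM in the diabetic libraries (SD, n = 2). With no messenger RNA measured, the label of a pigment cell pair could not be checked against melanocyte genes in these samples.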

How the data were processed

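Small RNA was isolated with a mirVana kit and sequenced on an Illumina platform, per the labels' protocols. GRCm38 and mm10, which name 1 mouse build, are given per the submitters' processing notes, whereas no aligner, counter or miRNA annotation version is stated in the sources used here. The deposited count table holds unnormalized read counts for mature miRNAs. The authors' deposited table holds TPM values per sample, base means (other values), a linear fold and its log2, and a p-value and q-value from unpaired DESeq2, per the file headers. No numeric column was left without a sample or comparison (0 columns).

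The members and lists were chosen with earlier results of these data known. Counts of 4 libraries were tested with edgeR 4.0.16 (glmQLFit and glmQLFTest, R 4.3.3), TMM scaling on entries passing filterByExpr at its defaults, group as the only term and Benjamini-Hochberg adjustment over all 443 tested entries. The code was tested on simulated counts. Standard errors are the difference over the square root of F. Likeness of patterns used log2 CPM with a prior count of 2. The ratio of the miR-204 arms had been planned without an added count, and 0.5 was added because of a count of 0. The miRNAs named are the members, their neighbours in mean level, the 5 nearest in pattern to each 5′ arm, the most abundant entry, and the most abundant of each list (4 for pigmentation, 2 for the others), of which the text gives part. miR-7670-3p was named for its seed, and miR-378c and miR-26a-1-3p for their place after their values were seen. miR-203b-3p was also named after its values were seen. Ratios of the 5′ arms to the reads of the keratinocyte and hair follicle list or of miR-205-5p were not planned. Scaling by library totals for the list and library contrasts, and leaving out libraries for the lists, were added after seeing the data. Alternatives were 16 other settings, among them DESeq2 1.42.0, limma 3.58.1 with voom, other scalings and filters, deposited TPM (mean of at least 1, pseudocounts 1 and 0.1), all 6 columns, each library left out, and a replicate block. Depth was 8949104, 13421603, 9309055 and 10762761 counts in normal libraries 1 and 2, then diabetic libraries 1 and 2, where 3 counts are 0.335, 0.224, 0.322 and 0.279 CPM. miRNA sequences and places were read from RefSeq tables on GRCm38.p6, and host genes from GENCODE M21 on GRCm38.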

Additional observations from a re-analysis of the deposited data

How the results depend on the processing

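For miR-204-5p and miR-211-5p, 12 settings that kept all 4 libraries, or used all 6 columns, left the direction as reported, with log2 differences of -0.42 to -0.15 and 0.34 to 0.65, and no adjusted p under 0.493 or 0.678. With 1 library left out the log2 difference ran from -0.51 to -0.09 for miR-204-5p and from -0.81 to 1.88 for miR-211-5p. miR-204-3p, tested only without the filter and in DESeq2, ran from 0.28 to 0.92 over 4 settings and from 1.00 to 2.06 with 1 library left out, and without diabetic ulcer 2 it had no diabetic count and gives no value. The log2 ratio of miR-211-5p to miR-204-5p differed by 0.83 to 1.12 over 4 settings and by -0.21 to 1.89 with 1 library left out. The log2 ratio of the miR-204 arms was 0.49 with all 6 columns and -1.22 on summed reads, a setting chosen after seeing the data, and ran from -2.13 to 1.95 with 1 library left out. It rests on 0 to 6 counts of the 3′ arm. On library totals edgeR called 1 miRNA, the muscle miRNA miR-499-5p (log2 -4.29, adjusted p = 0.009), named after its values were seen. It had 0 and 60.3 TMM-scaled CPM in normal libraries 1 and 2, against 0.09 and 1.74 in diabetic libraries 1 and 2. The call thus rests on normal ulcer 2, as normal ulcer 1 lay below both diabetic libraries. With 1 library left out edgeR called 0 to 6, the 6 (3 higher, 3 lower) without normal ulcer 1, where a lone normal library is assumed to vary like the diabetic ones. The median log2 differences of the marker lists, with settings chosen after seeing the data, ran as follows with 1 library left out: pigmentation -0.23 to 0.17, keratinocyte and hair follicle -0.78 to 0.52, muscle -1.27 to 1.67, leukocyte -0.40 to 0.76, eye and choroid plexus -0.66 to 0.28, endothelial -0.30 to 0.40, fibroblast -0.39 to 0.22, and neural and Schwann -0.56 to -0.06. On library totals the medians of the pigmentation and fibroblast lists turned to 0.060 and 0.025. The cause was not tested in these cases. Libraries that share a number share only that number in the labels. The library 1 minus library 2 differences of the groups correlated at 0.443 across 443 miRNAs, and a replicate block gave 0 calls and log2 differences of -0.33 for miR-204-5p and 0.48 for miR-211-5p. Depth limits miR-204-3p most.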

Other observations

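On TMM-scaled CPM, 19 miRNAs were at least 2-fold higher in library 1 than in library 2 of both groups. They were listed after their values were seen and hold 5 of the 10 keratinocyte and hair follicle markers. The list also holds the opposite arms of several of them, such as miR-205-3p (2.65 and 2.89 times in normal and diabetic ulcer) and miR-141-5p (3.44 and 2.43 times). Both arms of miR-31, a miRNA induced in keratinocytes of healing mouse wounds, were on it, with miR-31-3p at 2.87 and 2.47 times. Ahead of miR-211-5p stood miR-378c, which was 16.5 and 10.7 times higher in library 1, on 12804 and 545 reads in normal libraries 1 and 2 with 25839 and 2374 in diabetic libraries 1 and 2. For each 1000 reads of miR-205-5p there were 4.69 and 2.67 reads of miR-211-5p in normal libraries 1 and 2, against 7.02 and 5.09 in diabetic libraries 1 and 2. Both diabetic values lay above both normal ones. This ratio was not planned, and no test of it was made. The order holds for miR-205-5p, itself among the 5 nearest to miR-211-5p in pattern. Per 10000 reads of the whole keratinocyte and hair follicle list the groups overlapped, as diabetic ulcer 2 (2.46) lay below normal ulcer 1 (2.67). By TMM-scaled CPM, 9.03% of 443 tested miRNAs had both diabetic libraries above both normal ones. The share of other ratios with this order was not counted.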
